A study of Saccharomyces cerevisiae with 8 samples.

Results

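Budding yeast carries one asparaginase gene for the cytosol, ASP1, and a tandem set of near-identical genes for a secreted enzyme, ASP3-1 to ASP3-4. These 5 genes are described here, of 10799 yeast features in the deposited table, by their systematic names YDR321W, YLR155C, YLR157C, YLR158C and YLR160C. They were chosen with results of these data known: ASP3-1 was picked because rapamycin went with fewer reads in Dbp2-FRB-GFP cells and with more in parental cells, and its reads are few. That interaction, the 4 separate comparisons that make it up and their averages are therefore given for the ASP3 copies as a description, with no test.

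L-asparaginase splits asparagine into aspartate and ammonium. ASP1 encodes the cytosolic enzyme, which acts on asparagine inside the cell and is made during growth in rich medium. The ASP3 copies encode asparaginase II, which sits in the cell wall and lets the cell use asparagine from outside. ASP3 expression is known to be raised when nitrogen is scarce, under the nitrogen catabolite control that also governs other genes for poor nitrogen sources. GATA-type regulators carry out that control, Gln3 and Gat1 as activators and Dal80 and Gzf3 as repressors.

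The study sequenced stranded libraries of rRNA-depleted total RNA from S. cerevisiae in 4 groups of 2 biological replicates. The groups used here are Dbp2-FRB-GFP cells with rapamycin, parental cells with rapamycin, Dbp2-FRB-GFP cells without it and parental cells without it. All 8 cultures are labelled as W303 and MATalpha. They share the alleles can1-100, ade2-1 and trp1-1, his3-11,15, a leu2 allele with the changes 3 and 112, ura3, psi+ and GAL, and for the anchor-away system tor1-1, RPL13A-2xFKBP12::TRP1 and fpr1::NAT. The tagged strain adds DBP2-FRB-GFP-KanMX6, which the labels give in the source name. In this anchor-away design rapamycin tethers the FRB-tagged helicase Dbp2 to a ribosomal protein, and tor1-1 with loss of FPR1 keeps rapamycin from acting on the TOR kinase itself. Cells grew in YPD at 30 °C to an OD600 of 0.5, and the rapamycin groups had 1 µg/mL for 1 h. The labels do not say whether either strain was more than 1 clone, and the 4 comparisons share groups, so they are not independent of each other.

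The values are read densities, that is reads per nucleotide of a feature scaled to ERCC spike-in RNAs, of which 92 are listed. Whole reads were recovered from these densities. Yeast reads numbered 22523197 to 27500261 per library and spike-in reads 747342 to 1267031. As a check of the labelled mating type, the α-factor gene MF(ALPHA)1 had a density of 21.1 to 27.8, while MFA1, which encodes a-factor, had 0 to 0.234. FPR1, labelled as deleted, had a density of 0.102 to 0.151 in the 8 libraries, and its source was not tested.

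ASP1 lies on chromosome IV of the R64 reference at chrIV:1108702-1109847 on the plus strand, with a coding sequence of 1146 nt in 1 part. Its neighbours in the annotation are DAD4, a subunit of the kinetochore's Dam1 complex, and MRPL35, a mitochondrial ribosomal protein. The ASP3 copies lie on the minus strand of chromosome XII, ASP3-1 at chrXII:469317-470405, ASP3-2 at chrXII:472969-474057, ASP3-3 at chrXII:482549-483637 and ASP3-4 at chrXII:486201-487289. Each has a coding sequence of 1089 nt, and no pair of copies differed at a single coding position. This reference is the S288C genome, and how many copies the W303 cells carried was not measured.

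The first 60 coding bases of ASP1 and of the shared ASP3 sequence show how far the cytosolic and the secreted enzymes differ at their starts, where a secreted protein carries its signal peptide.
ASP1: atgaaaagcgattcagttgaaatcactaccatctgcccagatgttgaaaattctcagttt
ASP3-1: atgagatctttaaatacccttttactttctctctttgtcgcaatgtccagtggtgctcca
The same 60 bases begin ASP3-2, ASP3-3 and ASP3-4. Over the whole coding sequence 59.7% of 1051 aligned positions were identical between ASP1 and ASP3. The longest run they share is 14 nt, given in capitals within its surroundings at chrIV:1109209-1109252 (plus strand) and chrXII:469915-469958 (minus strand).
ASP1: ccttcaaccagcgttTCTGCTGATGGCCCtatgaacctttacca
ASP3-1: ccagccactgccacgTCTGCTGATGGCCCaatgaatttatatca
A read longer than that run can therefore be told apart between ASP1 and ASP3 by sequence, whereas a read inside an ASP3 coding sequence matches 4 places in the reference equally well.

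The identity of the ASP3 copies runs on past their coding sequences, by 506 to 913 nt downstream and by 362 to 2176 nt upstream depending on the pair, which makes identical stretches of 1957 to 3916 nt. The bases where exact identity between ASP3-1 and another copy ends are shown because a read can be told from that copy only where it reaches them. Capitals mark bases outside the identical stretch, read 5′ to 3′ on the minus strand. At the downstream end ASP3-1 parts from ASP3-4 within chrXII:468787-468834 and chrXII:485671-485718.
ASP3-1: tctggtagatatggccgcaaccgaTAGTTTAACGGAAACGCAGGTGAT
ASP3-4: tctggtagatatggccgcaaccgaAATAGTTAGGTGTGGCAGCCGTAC
At the upstream end the exact identity of ASP3-1 with ASP3-2 ends within chrXII:470744-470791 and chrXII:474396-474443.
ASP3-1: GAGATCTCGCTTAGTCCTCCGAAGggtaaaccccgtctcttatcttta
ASP3-2: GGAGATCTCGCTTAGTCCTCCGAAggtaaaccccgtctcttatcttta
ASP3-1 holds 1 base more at that place, and with it skipped the copies were identical for a further 1286 bases, so the capitals there mark a shift by 1 base and no other difference.

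The ASP3 promoter is shown because all 4 copies share it, from 250 bases before to 50 bases after the start codon, while the reads assigned to them differed. It was searched on both strands for GATAAG, a core sequence that GATA-type regulators bind. The match in capitals is its complement on the other strand and starts 223 bases before the start codon; ASP3-1 stands for all copies, at chrXII:470356-470655.
ASP3-1: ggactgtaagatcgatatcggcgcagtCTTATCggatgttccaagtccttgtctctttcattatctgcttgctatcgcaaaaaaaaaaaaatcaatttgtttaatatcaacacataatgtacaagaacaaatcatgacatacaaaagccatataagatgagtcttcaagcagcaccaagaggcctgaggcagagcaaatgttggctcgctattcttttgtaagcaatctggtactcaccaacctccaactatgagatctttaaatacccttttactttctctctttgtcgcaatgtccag
The ASP1 window of the same length held no match. Of 6020 promoters of that length in the reference, 881 held at least 1 match, or 14.6%.

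ASP1 was strongly read and the ASP3 copies hardly at all. Over the 8 libraries ASP1 had a mean density of 3.98, which stood above or level with 90.9% of 5888 protein-coding genes. ASP3-1 had a mean density of 0.0247, above or level with 5.01% of those genes. ASP3-4 came next at 0.00985, ASP3-3 followed at 0.00913, and ASP3-2 was lowest at 0.00178. Per nucleotide, ASP1 exceeded the 4 ASP3 copies summed by 87.6-fold. A filter that kept features with a mean density of at least 0.0133 passed 2 of the 5 genes, ASP1 and ASP3-1.

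ASP1 differed little between the groups. Its density was 4.79 and 4.15 in Dbp2-FRB-GFP cells with rapamycin, against 3.75 and 4.02 in parental cells with rapamycin. Without rapamycin it was 3.80 and 3.66 in Dbp2-FRB-GFP cells, against 3.50 and 4.17 in parental cells. These densities rest on 4259 to 6102 reads per library, and the counting error of 1 library, averaged within a group, was 0.0502 to 0.0647 in density, against replicate SDs of 0.101 to 0.467. Both tagged libraries with rapamycin lay above all other libraries except parental untreated replicate 2, which lay above the lower of them. By mean, the order was Dbp2-FRB-GFP with rapamycin at 4.47 ± 0.451 (SD, n = 2), parental with rapamycin at 3.89 ± 0.196, parental without at 3.83 ± 0.467 and Dbp2-FRB-GFP without at 3.73 ± 0.101, and no neighbours in that order were further apart than their spread except the first 2.

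**Figure D1:**
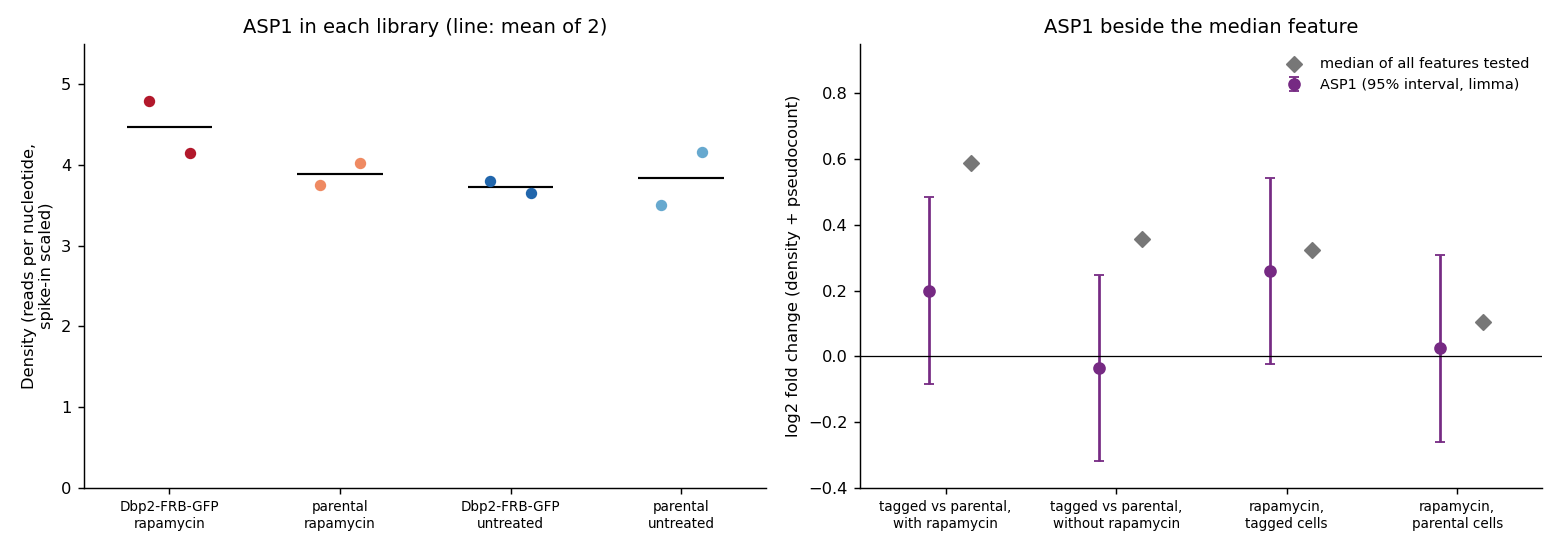
Left, ASP1 density (reads per nucleotide, spike-in scaled) in each of the 8 libraries, with the mean of 2 as a line. Right, the log2 fold change of ASP1 with its 95% interval (limma) beside the median of the 9656 features tested: ASP1 is at 0.20 and the median at 0.59 for Dbp2-FRB-GFP against parental cells with rapamycin.

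The tests used limma on log2(density + 0.00721) over 9656 features, with p-values adjusted by Benjamini-Hochberg over all of them at a threshold of 0.05. With rapamycin, ASP1 was 0.20 ± 0.14 (log2, SE) in Dbp2-FRB-GFP over parental cells, with an adjusted p of 0.189 and a 95% interval of -0.084 to 0.483. In that comparison 72.6% of all features were called, 70.5% of them higher and 2.13% lower as shares of those tested, and the median feature was at 0.59. Without rapamycin the strain difference of ASP1 was -0.036 ± 0.14, with an adjusted p of 0.840 by limma, where 46.4% of features were called and the median was 0.36. ASP1 thus stayed below the median feature in both strain comparisons. The features tested mix protein-coding genes with noncoding RNAs, and the median is taken over all of them.

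The direction of the ASP1 strain difference depended on the scale. Spike-ins made up 2.93 to 3.65% of reads in Dbp2-FRB-GFP libraries and 3.86 to 4.44% in parental libraries, and their part in the result was not tested. With densities scaled to protein-coding features in place of spike-ins, ASP1 was -0.29 with rapamycin (limma adjusted p = 0.000476) and -0.29 without it (0.000746), when the median of all features was 0.13 in each. Under quantile normalization, where the medians were -0.018 and -0.021, the values were -0.20 (adjusted p = 0.00461) and -0.21 (0.00462). On both rescaled measures ASP1 was therefore called lower in the tagged strain, and on the spike-in scale it was not called. Scaled to protein-coding features, 1736 of the 9656 features were called lower with rapamycin and 1384 without it. By quantiles these counts were 2232 and 1879. Bulk RNA cannot tell fewer cells with the transcript from less transcript per cell.

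Averaged over both treatments, the strain difference of ASP1 was 0.082 ± 0.097 on the spike-in scale, with an adjusted p of 0.442 by limma. In that comparison 76% of features were called, 72.6% higher and 3.32% lower. The rescaled averages were -0.29 on protein-coding features (adjusted p = 5.33e-05) and -0.21 by quantiles (0.000511, limma). On those scales 2014 and 2817 of all features were called lower.

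Rapamycin itself went with small changes in ASP1. In Dbp2-FRB-GFP cells the rapamycin effect was 0.26 ± 0.14, with an adjusted p of 0.135 by limma, while 13.8% of all features were called and the median was 0.32. This comparison passed the threshold without Dbp2-FRB-GFP rapamycin replicate 2, at 0.36 with an adjusted p of 0.0460. In parental cells the effect was 0.024 ± 0.14, with an adjusted p of 0.974 by limma, while 0.0311% of features were called (0.0207% higher) and the median was 0.10. Averaged over strains it was 0.14 ± 0.097, with an adjusted p of 0.245 by limma and a 95% interval of -0.059 to 0.342, where 5.12% of features were called, 5.04% higher and 0.0725% lower. Scaled to protein-coding features, these 3 effects were -0.092, -0.084 and -0.088, and none of the 3 passed the threshold. The difference between the rapamycin effects in the 2 strains was 0.24 for ASP1, beside a median of 0.22 over all features, and is given without a test.

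Across the 8 libraries, the features whose log2 levels followed ASP1 most closely were GLN4, the glutaminyl-tRNA synthetase (Pearson r = 0.989), PSE1, a nuclear import receptor (0.988), THS1, the threonyl-tRNA synthetase (0.988), LAG1, a ceramide synthase subunit (0.987), and SEC6, an exocyst subunit (0.987). These were the closest of 5686 protein-coding features that passed the filter on mean density. All points share the library scaling, so the r values describe these 8 libraries.

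The ASP3 reads were spread unevenly over the identical copies. Summed over 8 libraries, ASP3-1 held 225 reads, ASP3-4 86, ASP3-3 79 and ASP3-2 16. The copies have the same length, so these are also their relative levels per nucleotide before scaling. The sources used here do not say how the authors' counting treated reads that match several places, and reads of a copy may belong to another.

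Features that lie between the copies were almost without reads. The reference annotates 12 features between ASP3-1 and ASP3-4, of which 7 had values here; 4 of these had no read in any library and the highest of the 7 had 2 reads in all. YLR156W and YLR159W lie there, with 0 reads and 1 read, and their coding sequence is identical to that of YLR161W, just beyond ASP3-4. YLR161W had 85 reads in all, with 19 and 7 in Dbp2-FRB-GFP cells with rapamycin, 8 and 30 in parental cells with rapamycin, 5 and 2 in Dbp2-FRB-GFP cells without it and 13 and 1 in parental cells without it. Its replicates thus differed several-fold within a group. Among the features with values, 14 other sets of genes have identical coding sequences, and 8 of them have a copy with a mean of at least 10 reads; in 6 of these 8 the copies' mean reads differed by more than 2-fold.

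**Figure D2:**
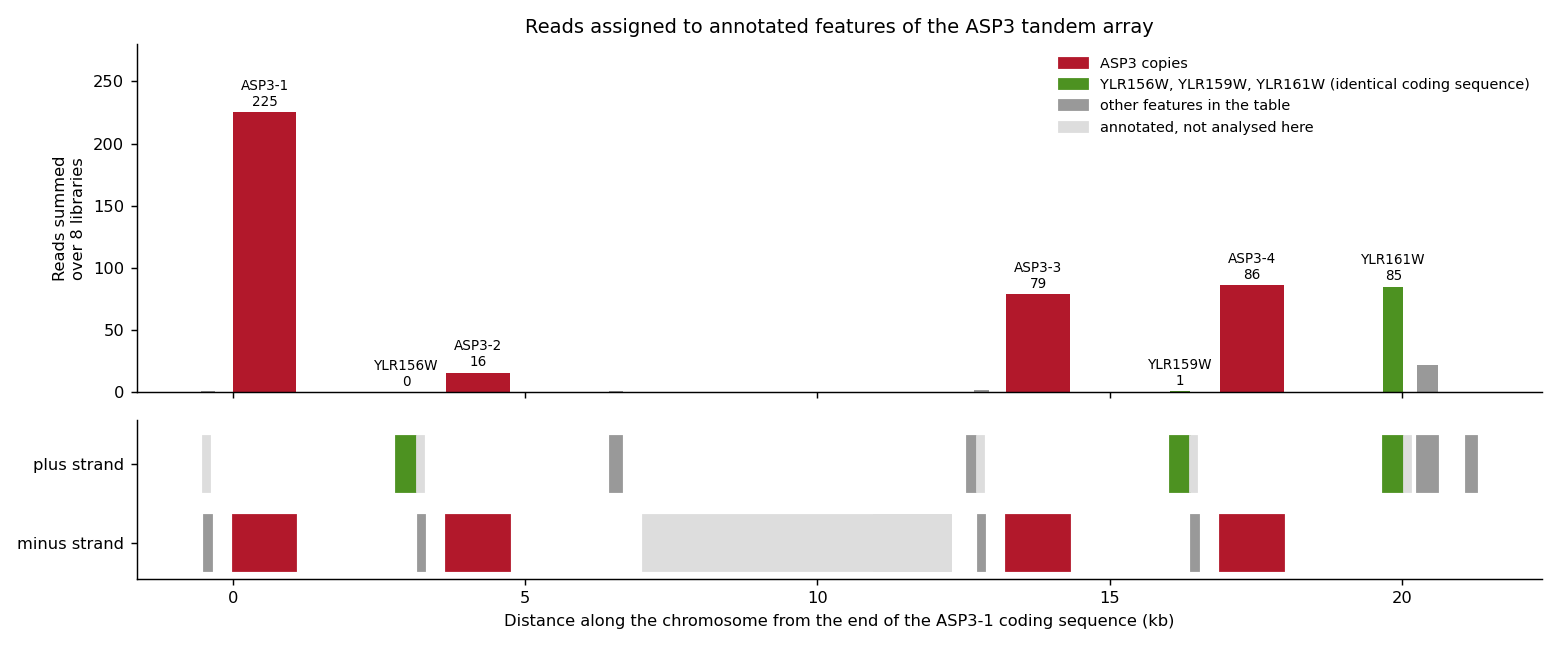
Reads summed over 8 libraries for each annotated feature of the ASP3 array (top) and the features' places on both strands (bottom), against the distance from the end of the ASP3-1 coding sequence in kb. ASP3-1 carries 225 reads and ASP3-2 carries 16, and among the 3 green genes with 1 coding sequence YLR161W carries 85 reads while YLR156W has 0.

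ASP3-1 was lowest in the tagged strain under rapamycin, which is the pattern it was chosen for. It had 5 and 5 reads in Dbp2-FRB-GFP cells with rapamycin, against 57 and 47 reads in parental cells with rapamycin. Without rapamycin it had 30 and 18 reads in Dbp2-FRB-GFP cells, against 31 and 32 reads in parental cells. A count of 5 has an exact 95% Poisson interval of 1.62 to 11.7, and a count of 57 one of 43.2 to 73.9, which cover counting error only. Both tagged libraries with rapamycin lay below the other 6 libraries, and both parental libraries with rapamycin lay above them.

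As densities, ASP3-1 was at 0.00536 and 0.00581 in Dbp2-FRB-GFP cells with rapamycin, against 0.0529 and 0.0409 in parental cells with rapamycin. The mean density in the tagged cells was 0.119 of that in the parental cells. Without rapamycin the densities were 0.0267 and 0.0165 in Dbp2-FRB-GFP cells, against 0.0212 and 0.0281 in parental cells, and these groups overlapped, with a ratio of means of 0.875. Set by treatment, the mean density with rapamycin was 0.259 of that without it in Dbp2-FRB-GFP cells and 1.90 times that without it in parental cells. The order of the means was parental with rapamycin, parental without, Dbp2-FRB-GFP without and Dbp2-FRB-GFP with rapamycin, and the middle 2 groups did not differ beyond their spread.

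On the log2(density + 0.00721) scale, which understates changes this low, ASP3-1 was at -2.07 in Dbp2-FRB-GFP over parental cells with rapamycin and at -0.16 without it. Rapamycin over untreated was -1.15 in Dbp2-FRB-GFP cells and 0.76 in parental cells. The interaction, the first of these strain values minus the second, was -1.91, against a median of 0.22 over all features. Over all features 0.0414% passed the interaction test and 0.0104% passed it downward; ASP3-1 was chosen by that contrast, so nothing is read from the share.

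**Figure D3:**
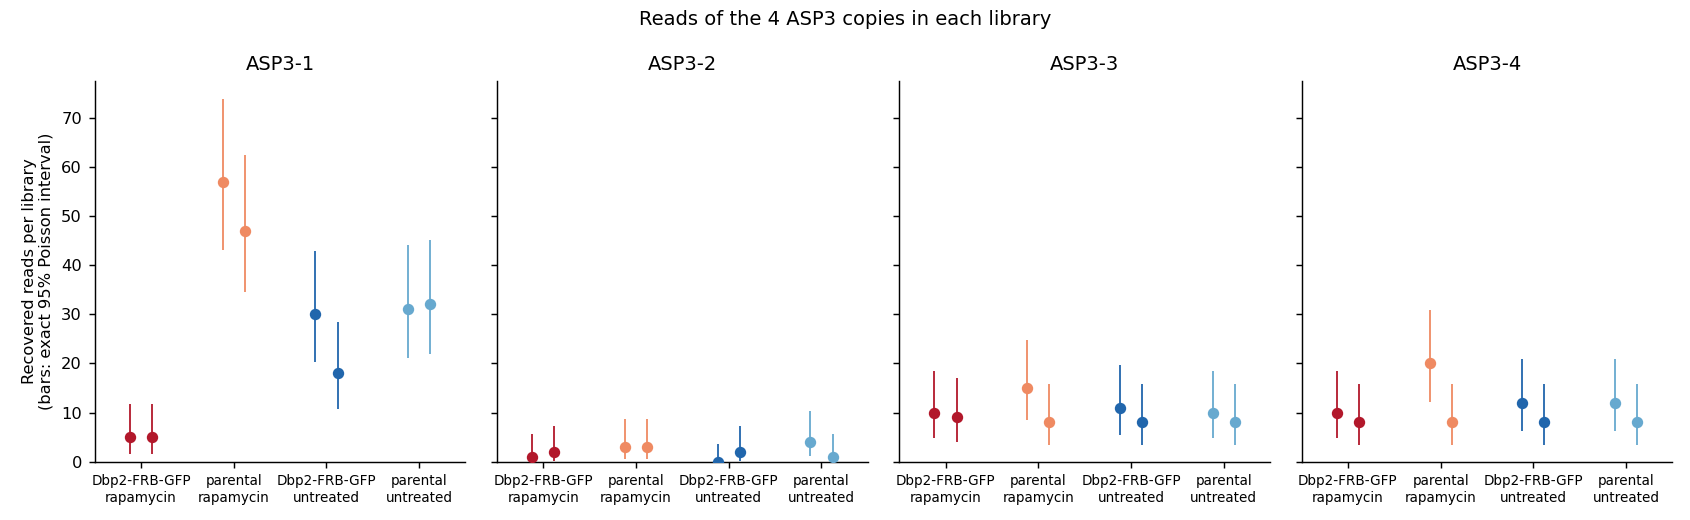
Recovered reads of each ASP3 copy in each of the 8 libraries (points, 2 per group), with exact 95% Poisson intervals as bars that cover counting error only. ASP3-1 has 5 and 5 reads in Dbp2-FRB-GFP cells with rapamycin, against 57 and 47 in parental cells with rapamycin, while ASP3-3 has 10 and 9 against 15 and 8.

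The reads assigned to ASP3-3 and ASP3-4 did not show the ASP3-1 pattern. A read inside the identical coding sequence cannot be placed in 1 copy by its sequence, so these are assigned reads only. ASP3-3 had 10 and 9 reads in Dbp2-FRB-GFP cells with rapamycin, against 15 and 8 in parental cells with rapamycin. ASP3-4 had 10 and 8 reads in the tagged cells with rapamycin, against 20 and 8 in the parental cells with rapamycin. In both copies the groups overlapped.

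Without rapamycin, ASP3-3 had 11 and 8 reads in Dbp2-FRB-GFP cells, against 10 and 8 in parental cells. ASP3-4 had 12 and 8 reads in Dbp2-FRB-GFP cells without rapamycin, against 12 and 8 in parental cells without it. ASP3-2 had 0 to 4 reads in every library, too few to order the groups. Whether these differences between copies come from the cells or from how reads were shared out among identical sequences was not tested.

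Summed, ASP3-2, ASP3-3 and ASP3-4 had 21 and 19 reads in Dbp2-FRB-GFP cells with rapamycin, against 38 and 19 in parental cells with rapamycin. Without rapamycin they had 23 and 18 in Dbp2-FRB-GFP cells, against 26 and 17 in parental cells. ASP3-1 made up 19.2 and 20.8% of the reads of all 4 copies in the tagged cells with rapamycin, against 60 and 71.2% in parental cells with rapamycin. Its share was 56.6 and 50% in tagged cells without rapamycin, against 54.4 and 65.3% in parental cells without it. The share has the ASP3-1 reads as its numerator, so it restates them against the other copies.

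All 4 copies together, whose sum does not depend on how the counted reads were divided among them, had 26 and 24 reads in Dbp2-FRB-GFP cells with rapamycin, against 95 and 66 in parental cells with rapamycin. Without rapamycin they had 53 and 36 reads in Dbp2-FRB-GFP cells, against 57 and 49 in parental cells. By density the tagged cells with rapamycin were at 0.383 of the parental cells with rapamycin, and the ratio without rapamycin was 0.977. With the 4 copies entered as their mean density plus 0.00721, the interaction was -0.80 (log2), against -1.91 for ASP3-1 alone. That mean lies close to the pseudocount, which shrinks the value, so the 2 sizes cannot be compared directly.

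The averages over treatments and over strains use the same 8 values that ASP3-1 was chosen by, and are likewise given without a test. Averaged over treatments, ASP3-1 was at -1.12 (log2) in Dbp2-FRB-GFP over parental cells, made up of -2.07 with rapamycin and -0.16 without it. The summed copies averaged -0.43 in that comparison, against a median of 0.48 over all features. Averaged over strains, the rapamycin value was -0.19 for ASP3-1 and 0.13 for the summed copies, against a median of 0.21 over all features.

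Of the protein-coding features compared, those most like ASP3-1 over the 8 libraries were AQY1, an aquaporin (Pearson r = 0.864), and SAG1, the α-agglutinin of mating cells (0.840). BNA2, an enzyme of NAD synthesis from tryptophan, came next (0.813). The ASP3-1 values behind these r values are 5 to 57 reads per library, and AQY1 had a mean of 24 reads.

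The neighbours of both loci that are given fold changes here were read in all 8 libraries. Between ASP3-4 and MAS1, YLR162W had 0 and 0 reads in Dbp2-FRB-GFP cells with rapamycin, against 5 and 2 in parental cells with rapamycin. Without rapamycin it had 1 and 6 in Dbp2-FRB-GFP cells, against 4 and 4 in parental cells. RRT15, also there, had no read in any library. In Dbp2-FRB-GFP over parental cells with rapamycin, DAD4 was at 0.82 ± 0.15 (adjusted p = 7.27e-05) and MRPL35 at 0.42 ± 0.16 (0.0220, limma), beside the ASP1 value of 0.20. Beyond the ASP3-4 end of the array the same comparison gave 0.48 for MAS1, the mitochondrial processing protease subunit, and 0.66 for SHH4, a homologue of a succinate dehydrogenase subunit. Beyond the rDNA repeats on the ASP3-1 side it gave 0.68 for RNH203, a subunit of RNase H2, 0.55 for the uncharacterized YLR152C and -0.021 for ACS2, an acetyl-CoA synthetase.

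The products and substrates of asparaginase tie it to 3 lists of genes, 28 in all, and each of the 28 was tested. The lists were 17 genes of asparagine and aspartate use, 5 of ammonium and glutamate assimilation and 6 nitrogen regulators. With rapamycin, 11 of the 28 were called higher in Dbp2-FRB-GFP over parental cells and 4 lower, with a list median of 0.18, beside 70.5% higher, 2.13% lower and a median of 0.59 over all features. Without rapamycin 5 rose and 5 fell around a list median of 0.10, beside 43.7% higher, 2.75% lower and a median of 0.36.

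In Dbp2-FRB-GFP cells rapamycin went with 4 called higher and none lower, with a list median of 0.33 beside 13.7% higher, 0.145% lower and 0.32 over all features. In parental cells none of the 28 was called by limma, beside 0.0311% of all features. Of the 28, 5 had an unadjusted limma p under 0.05 and voom called 1. The share of all features by either of those measures is not given, so nothing about the lists is read from them. The share of list genes called higher in either strain comparison was thus below that of all features. Those features include noncoding RNAs, and the share among protein-coding genes alone is not given.

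The counts in the strain comparisons depended on the scale. Scaled to protein-coding features, 3 of the 28 were called higher and 17 lower with rapamycin, when 2972 of the 9656 features were called higher and 1736 lower. Without rapamycin 2 were higher and 13 lower on that scale, against 2794 and 1384 of all features. Quantile normalization gave 2 higher and 16 lower with rapamycin, against 1972 and 2232 of all features. Without rapamycin it gave 2 higher and 13 lower, against 1629 and 1879 of all features. For rapamycin in Dbp2-FRB-GFP cells both rescalings gave 0 calls in the lists. Over all features they gave 5 higher and 13 lower scaled to protein-coding features, and 2 higher and 3 lower by quantiles.

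**Figure D4:**
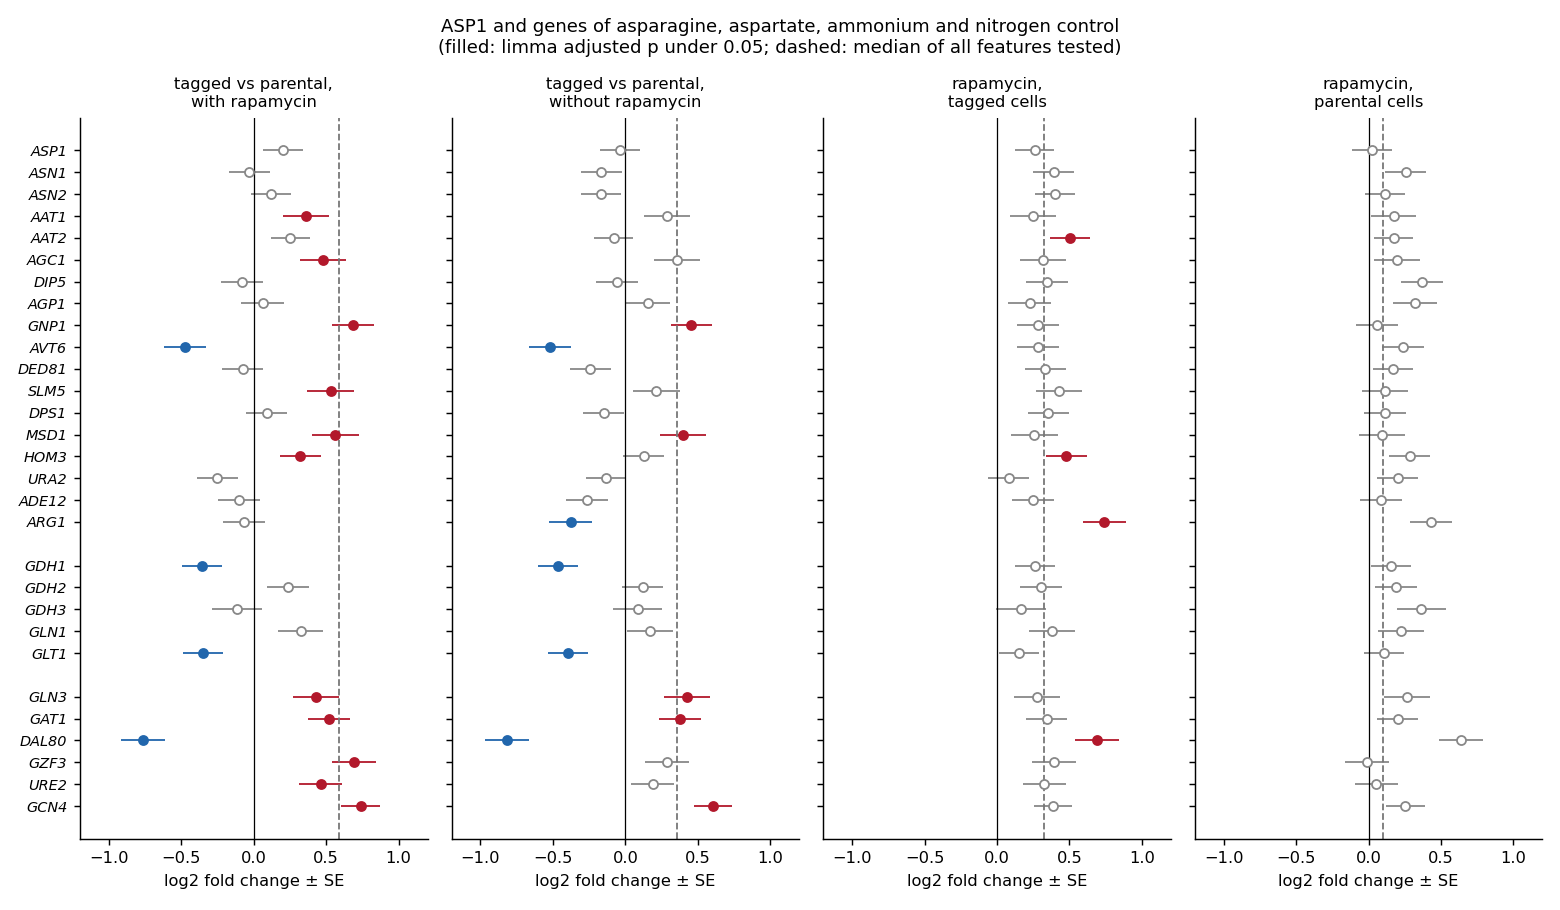
Log2 fold changes ± SE of ASP1 and the 28 list genes in the 4 comparisons (limma), with genes of asparagine and aspartate, of ammonium and glutamate, and regulators from top to bottom. Filled points are called at an adjusted p under 0.05, and the dashed line is the median of all features tested; DAL80 is at -0.76 and -0.82 in the strain comparisons and GCN4 at 0.74 and 0.60.

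ASN1 and ASN2 are the asparagine synthetases that run opposite to asparaginase. By limma on log2(density + 0.00721) with all 8 libraries, neither was called in any of the 4 comparisons on the spike-in scale. With rapamycin ASN1 was at -0.030 ± 0.14 and ASN2 at 0.12 ± 0.14 in Dbp2-FRB-GFP over parental cells, with limma adjusted p-values of 0.851 and 0.424. Their densities there were 10.3 and 8.03 for ASN1 in tagged cells, against 8.92 and 9.68 in parental cells. Scaled to protein-coding features, both were called lower in that comparison, at -0.52 for ASN1 (adjusted p = 0.000196) and -0.37 for ASN2 (0.000238, limma), and both were called lower without rapamycin too, at -0.42 each. Quantile normalization called both lower with rapamycin, at -0.51 and -0.32, and without it, at -0.42 and -0.37.

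The rapamycin effect in Dbp2-FRB-GFP cells was 0.39 for ASN1 (adjusted p = 0.0562) and 0.40 for ASN2 (0.0530, limma). Without Dbp2-FRB-GFP rapamycin replicate 2 these effects were called, at 0.57 and 0.53 (adjusted p = 0.00845 and 0.0121). By voom on recovered reads both were called at the same size of effect, with adjusted p-values of 0.0267 for ASN1 and 0.0265 for ASN2. ASN2 also passed the threshold at the 10th percentile pseudocount (adjusted p = 0.04996, limma). Leaving out either parental untreated library had to leave the effects at 0.39 and 0.40, because this comparison uses no parental library. Such a fit can change only the shared estimate of the spread, so nothing about the effects is read from it.

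AAT1 and AAT2, the mitochondrial and cytosolic aspartate aminotransferases, take up the aspartate that asparaginase makes. AAT1 was at 0.36 ± 0.16 in the strain comparison with rapamycin (limma adjusted p = 0.0438) and at 0.29 without it (0.138). AAT2 was at 0.25 with rapamycin (adjusted p = 0.0961) and at -0.080 without it (0.644, limma). The rapamycin effect in tagged cells was 0.25 for AAT1 (adjusted p = 0.198) and 0.50 for AAT2 (0.0312, limma).

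Of the 17 asparagine and aspartate genes, 6 were called higher and 1 lower in the strain comparison with rapamycin, beside 70.5% higher and 2.13% lower over all features. GNP1, a broad permease that takes up glutamine and asparagine, rose by 0.68 ± 0.14 (limma adjusted p = 0.000332). Its density was 5.06 and 4.06 in Dbp2-FRB-GFP cells with rapamycin, against 2.69 and 2.94 in parental cells with rapamycin, and the groups did not overlap. MSD1 and SLM5, the mitochondrial synthetases for aspartyl- and asparaginyl-tRNA, were at 0.56 and 0.53, and AGC1, a mitochondrial aspartate and glutamate carrier, at 0.48, all 3 below the median feature at 0.59. AVT6, a vacuolar exporter of acidic amino acids, fell by 0.47 ± 0.15 (adjusted p = 0.00648, limma), a call lost without parental rapamycin replicate 1. Without rapamycin 2 were higher and 2 lower, beside 43.7% higher and 2.75% lower over all features. They were GNP1 at 0.46, MSD1 at 0.40, AVT6 at -0.52 and ARG1, the argininosuccinate synthetase that uses aspartate, at -0.38.

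Of the 5 ammonium and glutamate genes, 2 were called lower in each strain comparison and none higher, beside 2.13% lower and 70.5% higher over all features with rapamycin and 2.75% and 43.7% without it. GDH1, the main ammonium-assimilating glutamate dehydrogenase, was at -0.36 ± 0.14 with rapamycin and -0.47 ± 0.14 without it (limma adjusted p = 0.0239 and 0.00869). GLT1, the glutamate synthase, was at -0.35 and -0.40 (adjusted p = 0.0270 and 0.0221).

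Of the 6 regulators, 5 were called higher and 1 lower in Dbp2-FRB-GFP over parental cells with rapamycin, beside 70.5% higher and 2.13% lower over all features. GCN4, the activator of amino acid synthesis genes, rose by 0.74 ± 0.13 with rapamycin and by 0.60 ± 0.13 without it (limma adjusted p = 6.46e-05 and 0.000933). DAL80, a GATA-type repressor, fell by 0.76 ± 0.15 and 0.82 ± 0.15 (adjusted p = 0.000160 and 0.000185). DAL80 had densities of 0.209 and 0.189 in tagged cells with rapamycin, against 0.360 and 0.327 in parental cells with rapamycin, and these groups did not overlap.

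GZF3, the other GATA-type repressor, was at 0.69 ± 0.15 with rapamycin (limma adjusted p = 0.000492) and 0.29 without it (0.122). The activators GAT1 and GLN3 were at 0.52 and 0.43 with rapamycin (limma adjusted p = 0.00300 and 0.0192) and at 0.38 and 0.42 without it (0.0348 and 0.0339). URE2, which holds Gln3 in the cytoplasm, was at 0.46 with rapamycin (adjusted p = 0.00949) and 0.19 without it (0.310). In parental cells DAL80 had the highest rapamycin value of the 6 at 0.64 (adjusted p = 0.129), and in Dbp2-FRB-GFP cells it was at 0.69 (0.0127, limma), with ARG1 at 0.74 (0.00874) and HOM3, the aspartate kinase, at 0.48 (0.0379).

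Few of these list calls held under every alternative. Of the 15 with rapamycin, GNP1, GCN4 and DAL80 kept their call in all 17 alternatives run. AAT1, AGC1, SLM5, MSD1, HOM3, GLN3 and URE2 turned direction on at least 1 rescaling. Of the 10 without rapamycin, GCN4 and DAL80 kept theirs. For rapamycin in Dbp2-FRB-GFP cells none of the 4 calls held throughout. The number of list genes called also moved in each comparison when 1 library was left out, a fit with 1 library in a group. The share of all features called in those fits is not given, so nothing about the lists is read from it.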

How the data were processed

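Per the labels' protocols, hot phenol RNA was depleted of rRNA and 125 ng of it went into each stranded library. Trim Galore, HISAT2 2.2.0, featureCounts 2.0.0 and DESeq2 with genome build R64 are named in the submitters' processing notes; the sources used here give neither the strand setting nor the treatment of multiply matching reads. The authors deposited signal values, read densities per nucleotide, which were found to be reads over feature length over a library factor. Each factor matches a median of ratios taken on the spike-ins with a positive value in every library. The recovered reads (all positive values whole within 0.0001 reads, partly by construction) describe depth and feed 1 alternative; the length that gave whole ASP1 reads was 1297 nt. The authors' group means were not used.

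Limma 3.58.1 (R 4.3.3) was fitted to log2(density + 0.00721), a pseudocount at the 5th percentile, with a mean-variance trend, on 9656 features with a mean density of at least 0.0133 (10th percentile) in all 8 libraries, with 4 residual and 18.0 prior degrees of freedom, two-sided. Replicates are biological, per the design text. Sequences were read from the RefSeq R64 genome with Biopython 1.88; tables used pandas 2.3.3 and numpy 2.4.6 in Python 3.11.15, intervals scipy 1.17.1 and plots matplotlib 3.10.9. The fit was tested on simulated data. Alternatives were other pseudocounts, no filter, other scalings, the spread of 2 groups, no trend and a replicate block. Further ones were the ASP3 copies replaced by their mean density, voom on recovered reads and leaving out each library. The text names the 5 genes, ASN1, ASN2, AAT1, AAT2 and 6 regulators in each comparison, up to 6 other called list genes by lowest p, locus neighbours, the 5 and 3 most correlated features and genotype markers. The genes and lists were chosen with earlier results of these data known.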

Additional observations from a re-analysis of the deposited data

Results flagged for a closer look

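ASP3-1 moved down with rapamycin in both Dbp2-FRB-GFP libraries (5 and 5 reads, against 30 and 18 untreated) and up in both parental libraries by density (0.0529 and 0.0409, against 0.0212 and 0.0281 untreated). The rapamycin effect in Dbp2-FRB-GFP cells minus that in parental cells was -1.91 on the log2 scale. ASP3-1 was chosen by this difference, which was therefore not tested.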

How the results depend on the processing

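With all 8 libraries on the spike-in scale, no ASP1 comparison passed the threshold. Its strain difference reversed with rapamycin to -0.29 when scaled to protein-coding features and -0.20 by quantile normalization, passed the threshold without rapamycin at -0.29 and -0.21, and reversed on average to -0.29 and -0.21. The rapamycin effect on ASP1 reversed to -0.092 and -0.077 in Dbp2-FRB-GFP cells, to -0.084 and -0.089 in parental cells and to -0.088 and -0.083 on average. The median of all features in the strain comparison with rapamycin was 0.13 and -0.018 on these scales, against 0.59 on spike-ins. Leaving out 1 library gave ASP1 values of 0.097 to 0.302 and -0.160 to 0.088 for the strain with and without rapamycin, 0.156 to 0.362 and -0.101 to 0.148 for rapamycin in Dbp2-FRB-GFP and parental cells, and 0.020 to 0.144 for the averaged strain difference.

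The averaged values of the ASP3 copies are descriptions with no test. That of ASP3-1 between strains ran from -1.71 by quantile normalization to -0.92 at the 10th percentile pseudocount. Without 1 library it ran from -1.25 to -0.986. The averaged rapamycin value reversed to 0.13 with the copies replaced by their mean density, a value of all 4 copies. The values of the other copies moved in some settings. The averaged strain value of ASP3-2 was -0.33 at the 1st percentile pseudocount, -0.46 under quantile normalization and -0.77 by voom. With the mean of the 4 copies in its place it was -0.43. The averaged rapamycin value of ASP3-2 was 0.31 at the 1st percentile pseudocount and 0.87 by voom. The strain value was -0.39 for ASP3-3 and -0.50 for ASP3-4 under quantile normalization, and -0.43 for the mean of the 4 copies. The interaction of ASP3-1 ranged from -2.74 by voom to -0.80 with the mean of the 4 copies in its place.

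List counts without rapamycin were 5 with the replicate block. For rapamycin in Dbp2-FRB-GFP cells they were 2 with no filter, 0 under both rescalings, 2 with no trend and 12 by voom. In parental cells they were 1 with the spread of 2 groups and 1 by voom. Except for the rescalings, the share of all features called in these settings is not given, so nothing about the lists is read from these counts. Without 1 library the 4 counts ran from 7 to 15, 3 to 11, 0 to 21 and 0 to 1. Replicate numbers did not pair the libraries: deviations of same-numbered libraries correlated at -0.134 to 0.151. With 5 to 57 reads per library for ASP3-1 and 0 to 20 for the other copies, ASP3 values are limited by counting error and by identical copies, and with 2 libraries per group an exact permutation test cannot reach the threshold.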
